A study of Nematostella vectensis with 66 samples.

Results

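The genes described here are 60 gene models of the starlet sea anemone Nematostella vectensis whose transcript level was highest at midday, at ZT7 (12 h on the clock) or ZT8 (13 h). They were taken from a table of 24265 gene models, of which 7691 averaged at least 15 CPM and 1285 of these had their highest hourly mean at ZT7 or ZT8. CPM is a gene's count scaled to the same total in every library. The members were the 60 of these 1285 with the largest F, the ratio of the variation between hours to the variation within hours. Of the members, 28 were highest at ZT7 and 32 at ZT8. The hourly means and F chose the genes, so both are given as a description without a test.

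The study followed adult Nematostella through 1 day in the field. The laboratory stock descended from animals of Great Sippewissett Marsh, Massachusetts, and was brought to a salinity of 30 ppt. In all 200 anemones were set out in 10 mesh pens in a marsh pool, and animals were preserved on site at each of 10 hours from ZT3 (8 h) to ZT12 (17 h). Whole-animal RNA gave 66 libraries, 29 from pools of 2 animals and 37 from single animals. An hour held 3 pools and 4 single animals, except for ZT6 with 2 pools and 4 single animals and ZT4 with 3 pools and 1 single animal. Library D of ZT4 is labelled as a pool although the letter D stands for single animals elsewhere, and the label was followed. All animals were adults of the same stock, and there was no treatment group. The labels do not name the pen of a library, so an effect of the pen and one of the hour cannot be told apart.

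Nematostella is a burrowing cnidarian of shallow estuarine pools, where light, temperature and water level change through the day. Most animals keep an internal daily clock, and in this species genes of the clock circuit, such as Clock and the light-sensing cryptochromes, are known to cycle in laboratory light and dark. ZT, or zeitgeber time, counts hours from the start of the light period. None of the 60 identifiers could be paired with a gene name, so no function is given to any of them and their courses over the day are described by identifier.

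The members were ranked in 60 of the libraries, 25 pools and 35 single animals, over 9 hours. The 4 libraries of ZT4, pool E of ZT5 and single animal B of ZT3 were not used in the ranking. Totals over the 66 libraries ran from 251647 to 909746 counts with a median of 640195, and the lowest total among the 60 was 424453. Depth was not even over the day. Mean totals were 725281 counts at ZT7, 753737 at ZT8 and 742340 at ZT9, and lay between 583349 and 650366 at the other hours used. Peaks after thinning all libraries to the same total are given in the last paragraph. No count of a member was 0 in the 3600 values of these libraries, and the least abundant member had a median of 11 counts.

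As a group the members formed a modest hump at midday on an uneven day. Each gene's hourly mean was set against its own mean over the day on the log2(CPM + 2) scale. The median member stood at -0.08 at ZT3, -0.35 at ZT5, -0.02 at ZT6, 0.22 at ZT7, 0.39 at ZT8, -0.02 at ZT9, -0.24 at ZT10, 0.09 at ZT11 and 0.15 at ZT12. Over all 7691 genes the same medians lay between -0.08 and 0.14, and the highest of them was that of ZT9. The members were thus low at ZT5, high at ZT7 and ZT8, low again at ZT10 and somewhat above their mean at the close of sampling. Because the animals were measured whole, fewer cells that express a gene and less RNA per cell cannot be told apart.

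**Figure D1:**
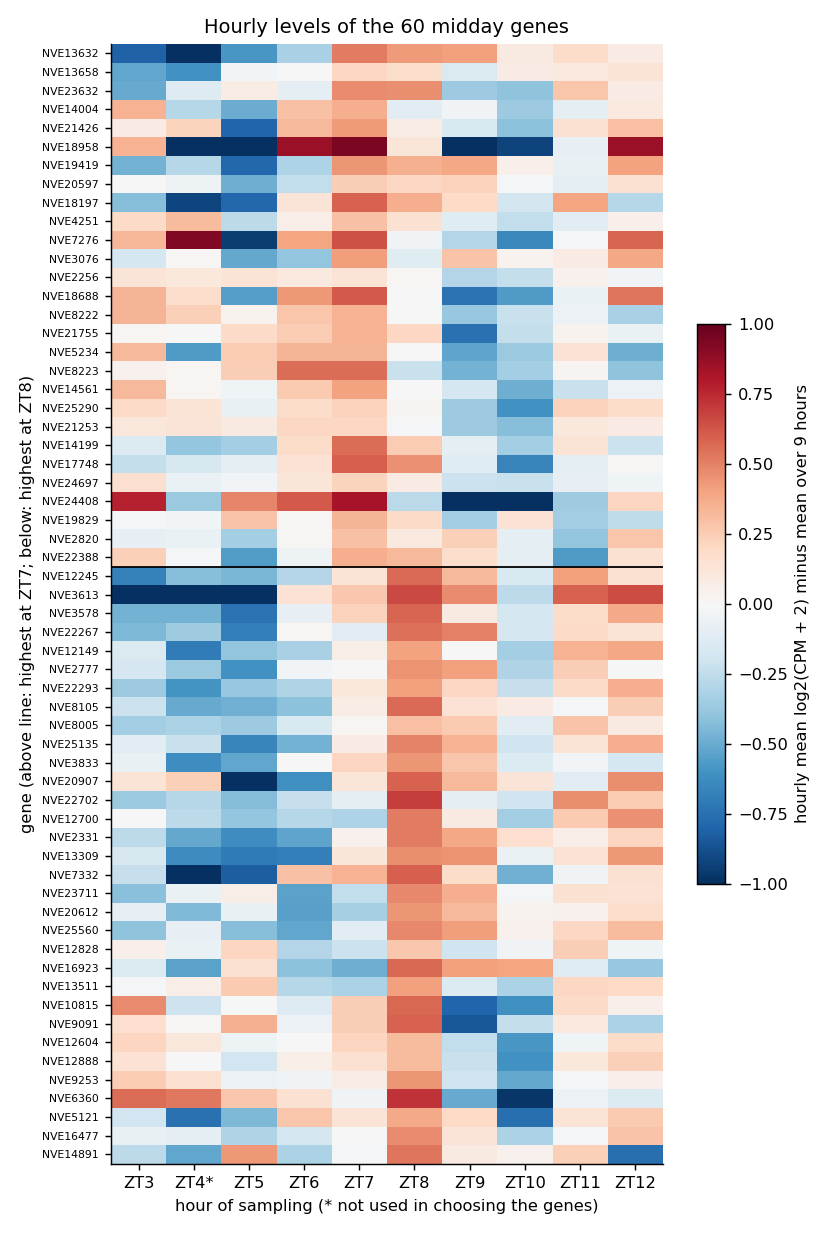
Hourly mean log2(CPM + 2) of each of the 60 members minus the gene's mean over the 9 hours used, with hours from ZT3 to ZT12 on the horizontal axis and 1 gene per row; ZT4 was not used in choosing the genes. Members highest at ZT7 stand above the line and those highest at ZT8 below it. Dark blue cells gather at ZT5 and at ZT9 or ZT10, and many rows are red again at ZT12.

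The label of a midday peak held in the hourly means by construction, but the lead of midday over the rest of the day was small. The higher of ZT7 and ZT8 exceeded the highest of the other 7 hours by a median of 0.09 log2 units, with a range of 0.001 to 0.46. The lead was under 0.1 in 32 members, between 0.1 and 0.25 in 24 and at least 0.25 in 4. In the class of 1285 genes from which the members were ranked, 56.6% had a lead under 0.1 and the median was 0.08. The lead was smaller than its own standard error in 55 members, between 1 and 2 standard errors in 4 and 2.02 standard errors in the remaining gene. For most members the hour of the peak was therefore not set apart from a second high hour beyond the spread between libraries. That second hour was most often ZT12, in 16 members, followed by ZT3 and ZT9 in 11 each, ZT6 in 10, ZT11 in 7 and ZT5 in 5.

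The distance between the highest and the lowest hour was larger. It ran from 0.43 to 2.09 log2 units with a median of 1.01, which is 2.01-fold, and reached 1 unit in 30 members. In 31 of the 60 members every library of the highest hour lay above every library of the lowest hour. Across all 7691 genes this held for 16% of genes, and since the rule used the same contrast nothing is read from the difference. Between 1 and 7 of the 9 hours, with a median of 3, lay within 0.25 log2 units of a member's peak.

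**Figure D2:**
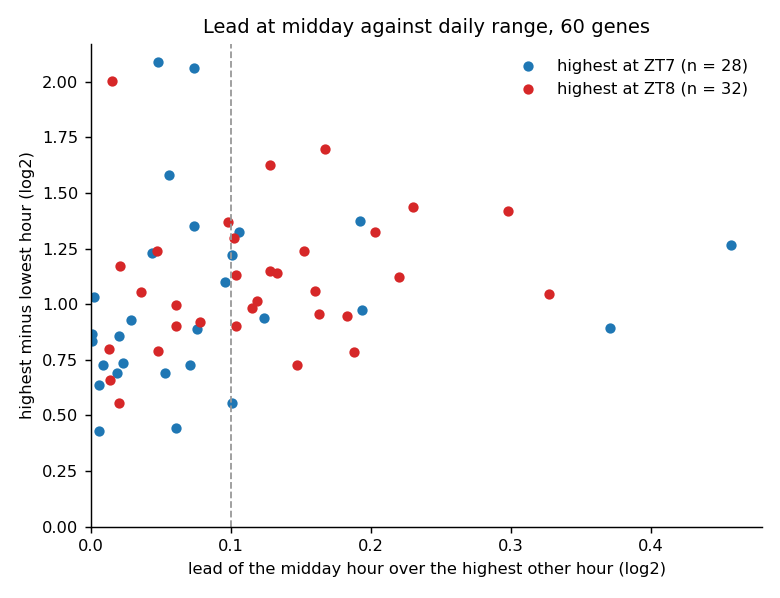
Lead of the midday hour over the highest other hour (horizontal axis, log2 units) against the distance from the highest to the lowest hour (vertical axis, log2 units), 1 point per member. Most points lie left of the dashed line at 0.1 although their distance from highest to lowest hour spans the whole vertical range, and 4 points lie at a lead of 0.25 or more.

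The members of ZT7 and those of ZT8 are described apart. Of the 60, 8 had ZT7 and ZT8 as their 2 highest hours, as did 14.2% of the class of 1285. Among the members of ZT7, ZT8 was the second highest hour in 6 of 28 and below the gene's own mean in 10. Among the members of ZT8, ZT7 was the second highest hour in 2 of 32 and below the gene's own mean in 12. The level at ZT7 of the members of ZT7 exceeded their level at ZT8 by a median of 0.22 log2 units. The level at ZT8 of the members of ZT8 exceeded their level at ZT7 by a median of 0.44, and by at least 0.1 in each of the 32. The direction of both differences was fixed by the split into ZT7 and ZT8 members.

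The ZT7 members had a course weighted to the morning. Their medians around the gene's own mean were 0.1 at ZT3, -0.18 at ZT5, 0.16 at ZT6, 0.38 at ZT7, 0.09 at ZT8, -0.19 at ZT9, -0.29 at ZT10, -0.04 at ZT11 and 0.08 at ZT12. The median ZT8 member was below its mean at ZT3, ZT5 and ZT6 and again at ZT10, and above it at the other hours. The values over the same hours, in order, were -0.15, -0.39, -0.26, 0.06, 0.49, 0.19, -0.2, 0.15 and 0.19 log2 units. The mean of ZT3, ZT5 and ZT6 exceeded the mean of ZT9 to ZT12 in 18 of the 28 ZT7 members and in 7 of the 32 ZT8 members, and in 37.2% of all 7691 genes. ZT9 lay above the gene's own mean in 7 of the 28 ZT7 members and in 23 of the 32 ZT8 members. The share over all genes was not computed for ZT9, but their median there was 0.14 above the own mean. All these hours were used by the rule, so nothing is read from the counts. The ZT7 members also drew more reads, with a median of 84.2 CPM over the day against 35 CPM in the ZT8 members. CPM is not divided by gene length, so this compares read support and not transcript number.

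**Figure D3:**
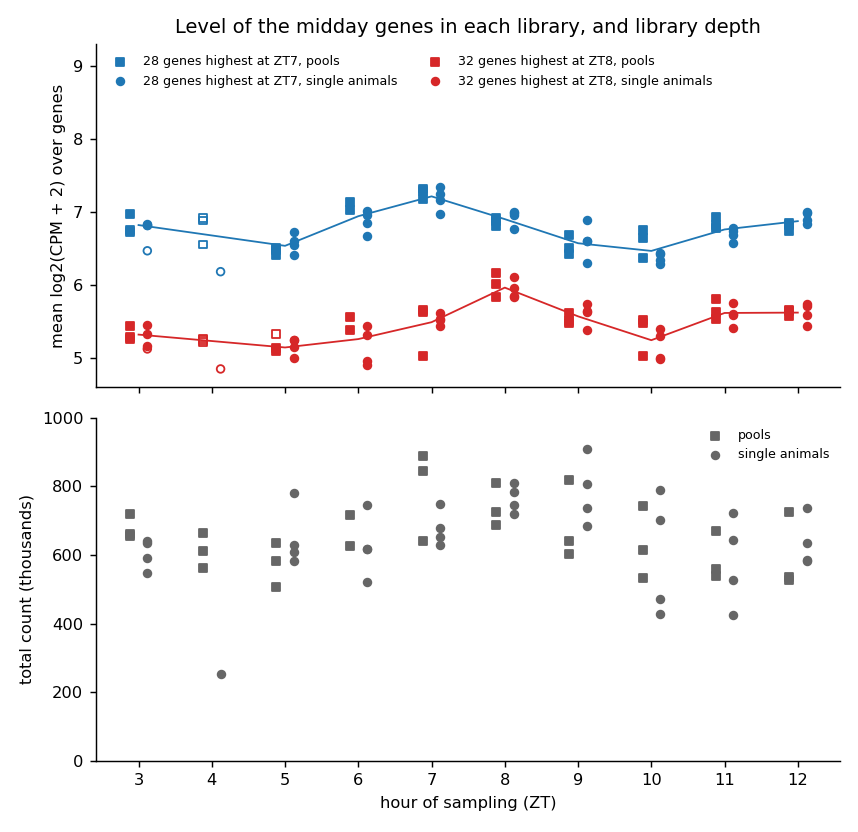
Mean log2(CPM + 2) over the 28 members highest at ZT7 and over the 32 highest at ZT8 in each library (upper panel), and the total count of each library (lower panel), by hour of sampling. Squares are pools and circles single animals, open symbols are the 6 libraries not used in choosing the genes, and lines join the hourly means of the libraries used. The opposite steps of the 2 sets from ZT7 to ZT8 follow from how they were split. Library totals are highest from ZT7 to ZT9.

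Averaged over all 60 members, the level per library varied within the hours used by SDs from 0.05 log2 units at ZT3 to 0.21 at ZT6. The libraries of ZT6 spanned 5.75 to 6.24. At ZT7 the level ran from 6.03 to 6.42 log2 units with a mean of 6.29 ± 0.15 (SD, n = 7). At ZT8 it ran from 6.32 to 6.52 with a mean of 6.4 ± 0.08 (SD, n = 7). The lowest hours were ZT5, from 5.73 to 5.88 with a mean of 5.79 ± 0.06 (SD, n = 6), and ZT10, from 5.63 to 6.1 with a mean of 5.81 ± 0.19 (SD, n = 7). The libraries of ZT12, the hour with the next highest mean outside midday, spanned 6.16 to 6.31. Every library of ZT8 lay above them, narrowly, with 6.318 in pool F of ZT8 against 6.312 in single animal A of ZT12. The libraries of ZT7 overlapped those of ZT12. The hourly means of these libraries chose the members, so a high level at midday is built in and nothing is read from it. F also uses the spread within hours, so a small spread is partly built in.

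Grouped by their lowest hour, the ZT7 members fell into 2 larger sets. In 9 of them (NVE14004, NVE21426, NVE18958, NVE19419, NVE20597, NVE18197, NVE4251, NVE7276 and NVE3076) the lowest hour was ZT5, 2 h before the peak, and the highest hour exceeded it by 0.56 to 2.06 log2 units. In 13 the lowest hour came after the peak, at ZT9 in NVE2256, NVE18688, NVE8222, NVE21755, NVE5234 and NVE8223 and at ZT10 in NVE14561, NVE25290, NVE21253, NVE14199, NVE17748, NVE24697 and NVE24408. Their distances ran from 0.43 to 2.09. NVE19829, NVE2820 and NVE22388 were lowest at ZT11, and NVE13632, NVE13658 and NVE23632 at ZT3.

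NVE2256 had the largest F of all members, 14.38, with a small distance of 0.43 log2 units between its highest and lowest hour. At ZT7 it had 1978, 2334 and 2623 CPM in the lowest, median and highest library, against 1425, 1744 and 1922 CPM at ZT9. The hourly means were 2348 ± 224 CPM at ZT7 and 1741 ± 162 at ZT9 (SD, n = 7 each). No library of ZT7 was as low as the highest of ZT9, but the gene was as high through the morning, at 2327 ± 110 CPM at ZT3 and 2330 ± 80.2 at ZT5 (SD, n = 6 each). The course of NVE2256 was that of an afternoon dip, with 1809 ± 210 CPM at ZT10 and 2191 ± 109 at ZT11 (SD, n = 7 each), and its lead at ZT7 was 0.006 log2 units. It had the smallest spread of any member among single animals, an SD of 0.13 log2 units around the hour means.

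NVE18688 changed more and had 2 peaks. It had 400.1, 654.9 and 965.6 CPM in the lowest, median and highest library of ZT7, and 148.4, 252.6 and 362.8 CPM at ZT9. Means were 640.5 ± 193 CPM at ZT7 and 251.7 ± 79 at ZT9 (SD, n = 7 each), a distance of 1.35 log2 units, and the libraries of the 2 hours did not overlap. A second low stood at ZT5, at 293.2 ± 133 CPM (SD, n = 6), and a second high at ZT12, at 592.9 ± 110 CPM (SD, n = 7). The lead of ZT7 over ZT12 was 0.07 log2 units with a standard error of 0.22.

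NVE8222 and NVE14004 were high at ZT3, ZT6 and ZT7 alike. NVE8222 averaged 254.8 ± 26 CPM at ZT7 (SD, n = 7) and 153.2 ± 15.5 at ZT9 (SD, n = 7), and its mean of 255.3 ± 43 CPM at ZT3 (SD, n = 6) was slightly above that of ZT7 before logs were taken. Its libraries spanned 210.1 to 298.4 CPM at ZT7 and 134.1 to 180.0 CPM at ZT9, without overlap. NVE8223, whose identifier follows on NVE8222, was also a member highest at ZT7 and lowest at ZT9, and these were the only neighbouring identifiers among the 60. NVE14004 had 86.5 ± 17.4 CPM at ZT7 (SD, n = 7) against 46.5 ± 7.02 at ZT5 (SD, n = 6), with libraries from 62.9 to 113.8 CPM at ZT7 and from 36.1 to 56.7 CPM at ZT5. At ZT3 it had 85.2 ± 16.1 CPM (SD, n = 6), 0.02 log2 units below ZT7.

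NVE19829 and NVE21755 completed the 6 ZT7 members with the largest F. NVE19829 had 120.0 ± 16.8 CPM at ZT7 and 73.8 ± 13 at ZT11 (SD, n = 7 each), and its libraries spanned 101.9 to 148.4 CPM at ZT7 and 62.2 to 98.3 CPM at ZT11. NVE21755 stayed between 154.4 and 193.7 CPM in its hourly means at ZT3 and from ZT5 to ZT8 and then stood at 92.7 ± 31.9 CPM at ZT9 (SD, n = 7). At ZT7 its lowest, median and highest library had 174.8, 190.6 and 247.6 CPM, against 66.3, 83.2 and 157.6 CPM at ZT9. The groups did not overlap, and what set ZT9 apart was a low and not a midday high.

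NVE24408 and NVE18958 had the largest distances between hours, 2.09 and 2.06 log2 units, and also the largest spread among single animals, with SDs of 0.97 and 0.83 log2 units around the hour means. NVE24408 had 216.4 ± 73.8 CPM at ZT7 and 61.8 ± 43.6 at ZT10 (SD, n = 7 each). Its libraries ran from 124.4 to 341.5 CPM at ZT7 and from 6.38 to 142.5 CPM at ZT10, with overlap, and at ZT6 a single library reached 617.5 CPM. NVE18958 had 113.9 ± 38.2 CPM at ZT7 (SD, n = 7) against 31.8 ± 24.4 at ZT5 (SD, n = 6), with 106.2 ± 25.6 CPM at ZT6 (SD, n = 6) and 108.2 ± 32.6 at ZT12 (SD, n = 7). Libraries of NVE18958 ranged from 69.4 to 185.5 CPM at ZT7 and from 6.88 to 72.2 CPM at ZT5.

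NVE21253 and NVE24697 were among the members with the smallest distances between hours. NVE21253 had 2116 ± 398 CPM at ZT7 and 1379 ± 366 at ZT10 (SD, n = 7 each), a distance of 0.64 log2 units with overlapping libraries, and it led its level at ZT6 by 0.006. NVE24697 had 448.6 ± 57.6 CPM at ZT7 and 328.2 ± 36 at ZT10 (SD, n = 7 each). It was highest at ZT7 in pools alone and in single animals alone, with SDs of 0.19 log2 units in pools and 0.21 in single animals around the hour means.

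Among the ZT8 members the lowest hour was ZT5 in 16, namely NVE3613, NVE3578, NVE22267, NVE12149, NVE2777, NVE22293, NVE8105, NVE8005, NVE25135, NVE3833, NVE20907, NVE22702, NVE12700, NVE2331, NVE13309 and NVE7332. The highest hour exceeded it by 0.66 to 2 log2 units. In 8 the low followed the peak, at ZT9 in NVE10815 and NVE9091 and at ZT10 in NVE12604, NVE12888, NVE9253, NVE6360, NVE5121 and NVE16477. NVE23711, NVE20612, NVE25560 and NVE12828 were lowest at ZT6, NVE12245 at ZT3 and NVE14891 at ZT12. In NVE16923 and NVE13511 the lowest hour was ZT7, the hour directly before the peak, which held for 5.83% of the 738 genes that were highest at ZT8.

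NVE3613 was low at ZT3 and ZT5 and higher from ZT6 on. Its lowest, median and highest library had 45.1, 59.8 and 72.8 CPM at ZT8, against 5.16, 12.7 and 37.2 CPM at ZT5. Means were 60.2 ± 8.79 CPM at ZT8 (SD, n = 7) and 15.7 ± 11.2 at ZT5 (SD, n = 6), a distance of 2 log2 units, and the libraries did not overlap. The gene stood at 48.04 ± 26.7 CPM at ZT6 (SD, n = 6), 34.8 ± 18.9 at ZT10, 61.5 ± 32.2 at ZT11 and 61.02 ± 18 at ZT12 (SD, n = 7 each). ZT11 and ZT12 exceeded ZT8 in mean CPM, and ZT8 led on the log scale by 0.015.

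NVE12604 and NVE12245 peaked at ZT8 in pools alone and in single animals alone. NVE12604 had 176.8 ± 27.6 CPM at ZT8 and 95.1 ± 22.8 at ZT10 (SD, n = 7 each), with libraries from 142.3 to 213.8 CPM at ZT8 and from 63.8 to 123.5 CPM at ZT10. It had 163.6 ± 19.8 CPM at ZT3, 137.8 ± 27.9 at ZT5 and 140.5 ± 15.9 at ZT6 (SD, n = 6 each), and it returned to 160.4 ± 15 CPM at ZT12 (SD, n = 7). NVE12245 climbed through the morning in its hourly means, at 12.0 ± 6.16 CPM at ZT3, 13.99 ± 5.19 at ZT5, 16.4 ± 6.94 at ZT6 (SD, n = 6 each), 21.3 ± 2.09 at ZT7 and 29.7 ± 6.27 at ZT8 (SD, n = 7 each). At ZT8 its libraries ran from 21.7 to 40.8 CPM and at ZT3 from 7.81 to 24.4 CPM, where the highest value overlapped those of ZT8.

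**Figure D4:**
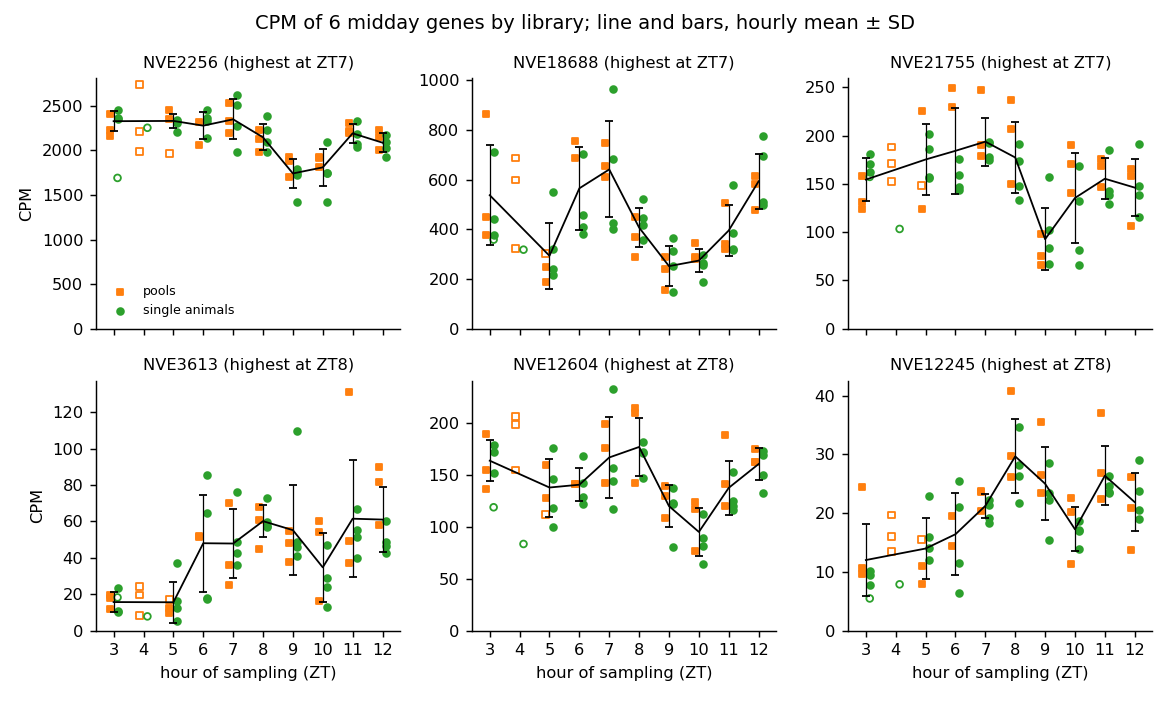
CPM of 3 of the 6 members with the largest F and a peak at ZT7 (NVE2256, NVE18688, NVE21755) and of the 3 with the largest F and a peak at ZT8 (NVE3613, NVE12604, NVE12245), by hour of sampling. Squares are pools and circles single animals, open symbols are libraries not used in choosing the genes, and lines with bars are the mean ± SD of the libraries used. NVE2256 and NVE21755 show a low at ZT9 more than a midday high, NVE18688 has a second high at ZT12, and NVE12245 climbs from ZT3 to ZT8.

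NVE12888, NVE3578 and NVE14891 completed the 6 ZT8 members with the largest F. NVE12888 had 493.2 ± 112 CPM at ZT8 and 261.7 ± 70.4 at ZT10 (SD, n = 7 each), with 471.6 ± 116 CPM at ZT12 (SD, n = 7), and the highest library of ZT10, at 394.9 CPM, overlapped the lowest of ZT8, at 391.7 CPM. NVE3578 had 22.3, 45.6 and 56.9 CPM in the lowest, median and highest library of ZT8, against 6.57, 15.7 and 20.5 CPM at ZT5, without overlap. Its means of 41.6 ± 13 CPM at ZT8 (SD, n = 7) and 15.4 ± 4.99 at ZT5 (SD, n = 6) lay 1.32 log2 units apart. NVE14891 was the member lowest at ZT12, with 30.0 ± 11.5 CPM at ZT8 against 11.4 ± 5.4 at ZT12 (SD, n = 7 each), and it had a second high of 27.1 ± 5.82 CPM at ZT5 (SD, n = 6). Pool G of ZT8 held 55.7 CPM, and without this library the highest hour of NVE14891 was ZT5. That hour was also its highest with TMM scaling and with hourly medians.

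NVE13511 and NVE20612 had the fewest reads of the members. NVE13511 had 23.1 ± 3.1 CPM at ZT8, against 13.4 ± 3.41 at ZT7 (SD, n = 7 each). Its libraries spanned 19.8 to 28.5 CPM at ZT8 and 9.00 to 18.7 CPM at ZT7, so the change fell wholly between 2 neighbouring hours. NVE20612 had 24.8 ± 7.72 CPM at ZT8 (SD, n = 7) and 11.5 ± 3.03 at ZT6 (SD, n = 6), and at ZT9 it was still at 23.2 ± 8.35 CPM (SD, n = 7). At this read support the gap between hours rests on few counts per library.

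The 5 members whose lead reached its standard error were NVE14199, NVE17748, NVE8105, NVE16477 and NVE9253, named after their values were seen. NVE14199 had 167.8 ± 61.3 CPM at ZT7 and 132.6 ± 34.5 at ZT8 (SD, n = 7 each), with 124.3 ± 22.2 CPM at ZT6 (SD, n = 6) as the highest hour outside midday, a lead of 0.37 log2 units. Its libraries at ZT7 ran from 100.5 to 273.6 CPM and overlapped those of ZT6, at 86.3 to 146.9 CPM. NVE17748 had 34.5 ± 10.6 CPM at ZT7 and 30.98 ± 9.84 at ZT8 (SD, n = 7 each), against 23.99 ± 4.86 CPM at ZT6 (SD, n = 6), a lead of 0.46. In NVE14199 and NVE17748 both midday hours stood above the other 7 hours.

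NVE8105 was high at ZT8 alone, at 34.8 ± 11.9 CPM, with 26.6 ± 5.7 CPM at ZT12 as the next hour (SD, n = 7 each), a lead of 0.33. NVE16477 had 91.5 ± 13.6 CPM at ZT8 and 81.2 ± 17.4 at ZT12 (SD, n = 7 each), a lead of 0.19. NVE9253 had 58.6 ± 12.8 CPM at ZT8 (SD, n = 7) and 51.5 ± 11.5 at ZT3 (SD, n = 6), a lead of 0.18. In each of these 3 genes the libraries of ZT8 overlapped those of the next highest hour.

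The rank limit that closed the list was not a natural gap. The last members inside it, NVE12828, NVE7332 and NVE3076, had F of 4.41, 4.41 and 4.37, and the first genes outside it, NVE1994, NVE3749 and NVE3084, had 4.37, 4.35 and 4.35. The median F of the members was 5.11. Ranked among all 7691 genes by F, the last member stood at place 760, and 6 members were among the first 100. NVE7332 had 58.1 ± 16.2 CPM at ZT8 (SD, n = 7) against 21.6 ± 10.4 at ZT5 (SD, n = 6), while NVE12828 had 199.6 ± 36.5 CPM at ZT8 and 197.0 ± 36.3 at ZT11 (SD, n = 7 each). NVE3076 had 37.4 ± 7.35 CPM at ZT7 and 36.7 ± 7.25 at ZT12 (SD, n = 7 each). Outside the limit, NVE1994 had 87.3 ± 24 CPM at ZT7 (SD, n = 7) against 43.8 ± 14 at ZT5 (SD, n = 6), and NVE3749 had 469.9 ± 59.5 CPM at ZT7 (SD, n = 7) against 302.0 ± 44 at ZT5 (SD, n = 6). NVE3084 had 719.7 ± 175 CPM at ZT8 and 414.1 ± 127 at ZT9 (SD, n = 7 each).

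Set beside the 60 genes ranked first by F at each neighbouring peak, the midday genes had the smallest distance between hours of the 3 lists. Their median distance from highest to lowest hour was 1.01 log2 units, against 1.44 in the genes highest at ZT6 and 1.22 in those highest at ZT9. A small lead was shared with the ZT6 genes, since the median lead was 0.09 log2 units in the midday members, 0.1 in the ZT6 genes and 0.21 in the ZT9 genes. It was under 0.1 in 32, 30 and 14 genes of these lists, and at least 0.25 in 4, 12 and 26. Of the 7691 genes 7.11% were highest at ZT7 and 9.6% at ZT8, shares like those of the other hours, which ran from 7.49% to 10.2% apart from 32.1% at ZT9. The 3 lists are not fully alike. The midday lead takes the higher of ZT7 and ZT8 over the rest, and the leads of ZT6 and ZT9 take a single hour over all others. The lists were drawn from classes of 1285 genes at midday, 623 at ZT6 and 2468 at ZT9. These are descriptions of lists chosen by their peaks and were not tested.

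Most members had a lower level after midday than at ZT8. Hourly means were lower at ZT9 than at ZT8 in 55 of 60 members and in 43.3% of all 7691 genes, with a median member change of -0.3 log2 units, and lower at ZT10 than at ZT8 in 59 members and 59.5% of all genes. The level at ZT11 exceeded that at ZT10 in 51 members and 52.3% of all genes, by a median of 0.36 in the members. For the 32 members highest at ZT8, the lower levels at ZT9 and ZT10 were fixed by the rule, and all hours here were used by it, so nothing is read from these shares. At ZT12 36 members stood above their ZT3 level, as did 57.3% of all genes. A course with a dip of at least 0.25 log2 units at ZT5 and a second at ZT9 or ZT10 was present in 16 members, 10 of them highest at ZT7, and in 8.02% of all genes. With TMM scaling in place of column sums the median of all genes moved by -0.11 log2 units at ZT9 and by 0.08 at ZT5. At the other hours it moved by -0.037 to 0.045, so levels at ZT5 and ZT9 are best read against these shifts.

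The 6 libraries left out of the ranking gave values that did not choose the members. At ZT4 the mean over members was 5.84 log2 units (SD 0.26, range 5.47 to 6.02, n = 4), below each library of ZT7 and ZT8, the lowest of which stood at 6.03. The mean at ZT4 exceeded the midday peak in 2 members, NVE4251 and NVE7276, and in 9.11% of the class of 1285. With the 3 pools of ZT4 alone, without the shallow single animal C, it did so in 7 members, which also included NVE12604, NVE8222, NVE25290, NVE22388 and NVE6360. The share of the class was not computed for the pools alone, so the 7 cannot be set against the 9.11%. The median difference of ZT4 from the peak was -0.63 log2 units. The lowest of the 4, single animal C, held 251647 counts, the fewest of all libraries. Single animal B of ZT3 stood at 5.75 and pool E of ZT5 at 5.87 log2 units, both also below the midday libraries. The members were chosen for high values in the midday libraries, so lower values in libraries left out are partly built in. Hours next to ZT4 were also used in the ranking. The low levels at ZT4 and in the other libraries left out are therefore a description.

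Pools of 2 animals and single animals were compared at the same hours, a contrast that did not set the direction of the members, although F uses the spread within hours that such a difference would widen. No gene model of the 10916 tested passed, 0% of them and 0 of the 60 members, in edgeR's quasi-likelihood test with hour in the model and an adjusted p below 0.05. At an unadjusted p below 0.05 there were 4 members, NVE16477, NVE14561, NVE12888 and NVE2820, and 5.47% of all genes tested. The largest difference of a member by p was that of NVE16477, 0.26 log2 units higher in pools (SE 0.07, edgeR adjusted p = 0.516). With the replicate letter as a block beside sample type, a fit in which this term rests on library D of ZT4, 11 genes and 0 members passed. DESeq2 also called 0 genes, with 574 of all genes and 4 members at an unadjusted p below 0.05. The estimate was higher in pools in 43 of the 60 members and in 52.7% of all genes tested. The median absolute difference was 0.082 log2 units in the members and 0.095 over all genes tested, and the estimates of the members ran from -0.31 to 0.26.

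Whether the course over the hours differed between pools and single animals was tested with an interaction term. F uses the spread within hours, which such a difference would widen, so a low count of members is partly built in. Of the 60 members 0 passed in edgeR, against 0.147% of all genes tested, which were 16 genes. At an unadjusted p below 0.05 there were 4 members, NVE13309, NVE22702, NVE24408 and NVE22293, and 7.38% of all genes tested. The smallest adjusted p of a member was 0.56, that of NVE13309 in the same edgeR test. DESeq2 called 23 genes and 0 members, with 3 members at an unadjusted p below 0.05. The 16 calls were absent when the 60 libraries of the ranking were fitted alone, where 0 genes passed and 828 had an unadjusted p below 0.05.

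The peak hour was also taken from each sample type alone. Taken from the 25 pools alone, the highest hour was ZT7 or ZT8 in 33 of 60 members, and from the 35 single animals alone in 36, with 20 members in both. In the class of 1285 the shares were 54.9% in pools and 51.7% in single animals, and the share in both was not computed. The interaction test called 0 members, but only 0.147% of all genes tested, and F ranks genes with such a difference lower. It therefore cannot decide whether the peak hour differed between the sample types. Both subsets were part of the ranking, so some return to midday is built in. The spread within hours was an SD of 0.39 log2 units in pools and 0.37 in single animals for the median member, and lower in pools in 30 of the 60. Over all genes it was 0.48 in pools and 0.44 in single animals, and lower in pools in 34.3%. F uses this spread, so a smaller spread in the members is built in and nothing is read from these values.

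The difference of midday from the rest of the day was also estimated in edgeR from all 66 libraries, as the mean of ZT7 and ZT8 minus the mean of the other 8 hours with sample type in the model. The median member was higher at midday by 0.29 log2 units, against 0.013 over all genes tested. Estimates ran from -0.02 in NVE13511, which was low at ZT7, to 0.74 in NVE18958 (SE 0.25). They were above 0.5 in 10 members and below 0.2 in 20. Fitted apart, the median was 0.22 in pools and 0.37 in single animals, and the estimate was above 0 in 54 members in pools and in 60 in single animals. The 6 with a value below 0 in pools, chosen for naming after their values were seen, were NVE14004, NVE25290, NVE7276, NVE20612, NVE12828 and NVE3076, from -0.075 to -0.008. In the test of all hours, 21.9% of all genes tested passed at an adjusted p below 0.05 in edgeR, as did 58 of the 60 members. The rule used both contrasts, and nothing is read from these counts.

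**Figure D5:**
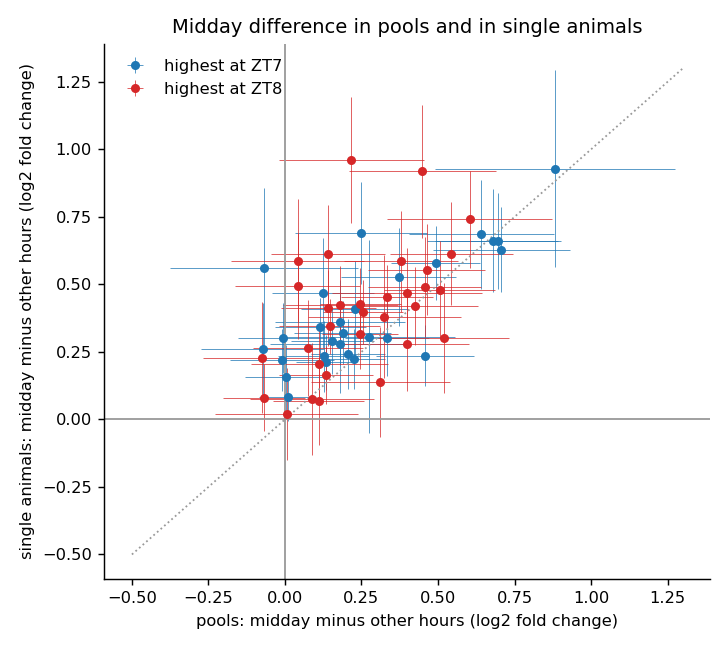
Difference of midday (ZT7 and ZT8) from the other hours in pools (horizontal axis, log2 fold change) and in single animals (vertical axis, log2 fold change), 1 point per member with bars of 1 standard error; the dotted line marks equal values. Nearly all points lie above 0 on both axes and 6 lie left of 0 in pools.

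Correlations between members within an hour were mostly low. Over the 60 libraries, with hourly means removed, the median correlation was 0.088 over the 1770 pairs of members and 0.02 over pairs of all genes. Before rounding, 3 pairs of members reached 0.6, as did 0.82% of all pairs. These were NVE22293 with NVE25135 (r = 0.7), NVE2256 with NVE21253 (r = 0.69) and NVE25135 with NVE13632 (r = 0.64), where the points share library and depth. The spread within hours entered F, and 22 members averaged below 30 CPM, where noise can lower a correlation. Nothing is therefore read from the low share of such pairs. NVE22293 had 244.0 ± 25.7 CPM at ZT8 and 161.9 ± 54.7 at ZT10 (SD, n = 7 each), and NVE25135 had 92.1 ± 32.1 and 58.02 ± 24 CPM at the same hours. NVE13632 had 99.2 ± 38.6 CPM at ZT7 (SD, n = 7) against 36.4 ± 8.12 at ZT3 (SD, n = 6).

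Mean depth was highest at ZT7, ZT8 and ZT9, and its effect on the peaks was not tested. Each library was thinned to 424453 counts in a single random draw. After this, 46 of the 60 members were still highest at ZT7 or ZT8 and 35 were still among the 60 ranked first. Thinning also adds sampling noise, so peaks lost through depth and through noise cannot be told apart. Of 10 other ways of scaling, filtering, thinning or choosing libraries, the other CPM minimums could not move a peak. The rest reused libraries that chose the peak, so some return to midday is built in, and shares over the class were not computed. In 17 members the peak stayed at ZT7 or ZT8 under each of the 10. These were NVE12604, NVE3578, NVE14199, NVE2777, NVE18197, NVE8105, NVE3833, NVE17748, NVE9091, NVE6360, NVE13632, NVE22702, NVE23711, NVE2331, NVE16477, NVE24697 and NVE23632. Of the 4 members with a lead of at least 0.25 log2 units, NVE14199, NVE17748 and NVE8105 were among them. The fourth, NVE7332, had 58.1 CPM at ZT8 and was highest at ZT6 in pools alone.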

How the data were processed

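The authors deposited 1 table of raw counts (whole reads or tags, 24265 gene models by 66 libraries). The labels cite Meyer and colleagues for library preparation and Putnam and colleagues for the genome, and the submitters' processing notes name Bowtie2 without a version. How reads were assigned to gene models, and whether molecular identifiers were used, is not given in the sources used here. Amplification may therefore be part of the counts, and reads of closely related gene models are uncertain. Of the identifiers, 0 matched a reference table of 38762 genes (jaNemVect1.1). No names, sequences or coordinates were therefore used here, nor were lists of clock, stress or cell type genes.

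CPM was the count divided by the library's column sum, and levels were log2(CPM + 2) with a pseudocount of 2. The members were the 60 genes with the largest F over 9 hours in 60 libraries, among those averaging 15 CPM or more and highest at ZT7 or ZT8. The members, lists and tests were chosen with earlier results of these data known. Named with values were the 6 members of each peak hour with the largest F, the 2 with the largest distance between hours, the 2 with the highest and the 2 with the lowest CPM, the 2 with the largest and the 2 with the smallest spread among single animals, and the 3 genes on each side of the rank limit. Genes named beyond this rule, including the groups by lowest hour and the members with the largest lead, were chosen after their values were seen.

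Tests across genes used edgeR 4.0.16 in R 4.3.3 (quasi-likelihood F test, robust, TMM, with the method of adjusted deviances) on the 10916 genes that filterByExpr kept with hours as groups and a minimum count of 10, with 97.2% of counts. P-values were adjusted after Benjamini and Hochberg over all of these genes, with a threshold of 0.05, and all 66 libraries entered. The filter kept 60 of 60 members. DESeq2 1.42.0, other scalings, filters, pseudocounts and library sets were tried as alternatives. Replicates are separate animals or pools per the labels. No 2 libraries agreed within sampling noise, with a lowest chi-square of 2.65 per degree of freedom. Libraries with the same letter at different hours did not vary together, with a median correlation of 0.036 over 279 pairs against 0.011 over the other 1677 pairs, so the letters do not pair samples.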

Additional observations from a re-analysis of the deposited data

Results flagged for a closer look

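The libraries of an hour were searched for a single one far from the others, in the level of the 21 members named by rule at their highest and lowest hours, in the mean level of all members and in the total count. Of 62 such sets, 7 held one, all in the level of a single gene. Chance flags about 1 in 20 sets. NVE21755 had 247.6 CPM in pool F of ZT7, where the other libraries spanned 174.8 to 193.5, and 157.6 CPM in single animal A of ZT9, where the others spanned 66.3 to 101.8. NVE3613 had 37.2 CPM in single animal D of ZT5, against 5.2 to 16.4 in the others. NVE12245 had 24.4 CPM in pool G of ZT3, against 7.8 to 10.6. At ZT8 3 values stood out: NVE12888 with 714.9 CPM in pool E, against 391.7 to 525.7, NVE14891 with 55.7 CPM in pool G, against 22.98 to 28.5, and NVE20612 with 42.1 CPM in single animal B, against 20.7 to 24.8. Each of the 7 was higher than the rest of its hour, and no library appeared more than once.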

How the results depend on the processing

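The list of members depended on the processing and on the libraries used. Of the 60, 36 were highest at ZT7 or ZT8 in single animals alone and 33 in pools alone. The count was 45 with hourly medians, 46 with counts thinned to 424453, 49 with TMM scaling and 57 with all 66 libraries. It was 59 or 60 under other pseudocounts. A different CPM minimum leaves the hourly means as they are, so it could not change this count. The rule kept 18 of the members in single animals alone, 8 in pools alone, 29 with a minimum of 50 CPM and 35 after thinning, by fewer libraries, fewer genes or fewer counts. It kept 41 with TMM, 41 with all 66 libraries, 52 with a minimum of 5 CPM and 59 with a pseudocount of 0.5 or 8. Leaving out each library of ZT7 and ZT8 in turn left 52 to 59 members highest at midday and 41 to 54 kept by the rule. The median midday difference of the members ranged from 0.28 to 0.31 log2 units without 1 library, and lay at 0.22 in pools alone and 0.37 in single animals alone.

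The time effect called 2288 to 2459 genes and 57 to 58 members without 1 library, against 2389 genes and 58 members with all. With the letter as a replicate block in place of sample type it called 2335 genes and 58 members. A replicate block beside sample type, added after seeing the data, called 2410 genes and 58 members for the time effect, 11 genes for sample type and 3 for the interaction. In that fit the main term of sample type rests on library D of ZT4, the only letter labelled with both types. The same letter did not pair the libraries, and 12 of 66 correlated best with their own letter. The interaction of hour and sample type called 16 genes, 12 to 19 without 1 library, but 0 in the 60 libraries of the ranking and 0 with edgeR's earlier quasi-likelihood method, which was chosen after seeing the data. At an unadjusted p below 0.05 these edgeR fits had 828 and 609 genes, and DESeq2 called 23. The cause was not tested. No setting called a member for sample type or interaction. Counts near 11 per library limit the hour of the peak in the members with fewest reads.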
